A study of Homo sapiens with 16 samples.

Results

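The comparison described here sets HepG2 clones homozygous for the G allele of PNPLA3 I148M against clones homozygous for the C allele, with both genotypes given palmitic acid. Its members are 5 of the 16 libraries of the series, chosen by their labels: the treated libraries of GG clones 1, 2 and 6 and of CC clones 1 and 3. The series holds 2 CC clones, so the CC side rests on 2 libraries. The clones come from HepG2, an established human liver tumour line in use as a hepatocyte model. The study used prime editing, in which a nickase joined to a reverse transcriptase copies a designed change into the genome. In GG clones both alleles encode the I148M form, and in CC clones both encode the form with isoleucine. All 5 libraries had palmitic acid at 250 µM, for 48 h in the protocol, while the labels of the single libraries read 48, 49 and 50 h for the GG clones and 54 and 55 h for the CC clones. These hours follow the sample order, and label time and genotype cannot be told apart. Each clone is 1 isolate with 1 library per treatment, so n counts clones, and no label places separate cultures of a clone side by side. Treated clones heterozygous at the site (GC, 3 clones) and the untreated libraries of the same clones are given beside the results.

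PNPLA3 is an enzyme on the lipid droplets of hepatocytes and stellate cells, with triglycerides and retinyl esters among its substrates. The I148M form is known to build up on droplets and to hold back their lipolysis, and its allele is a common genetic risk for fatty liver disease. Palmitic acid is a saturated fatty acid that liver cells burn in mitochondria, store as triglyceride or build into ceramide, and in excess it sets off stress signalling. The study asks how the genotypes differ under such a load.

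Of the 16558 genes in the table, 12972 had a mean of at least 1 unit over the 5 libraries and were tested. A unit is a deposited per-million count, scaled between libraries by the authors. Differences are on the log2(value + 0.5) scale, GG minus CC, with limma's standard error (SE) from all 8 treated libraries. Upstream windows of 7 genes described below were searched for the motif TATAA, and the 3 that hold it are shown, so they were picked on the motif. They belong to CEACAM6 and MUC1, which had reads nearly solely in the treated CC libraries, and to PLOD2, the gene with the smallest p among the named genes higher in GG. Each is the 250 bases before the RefSeq start on GRCh38.p14, read 5′ to 3′ on the gene's strand, with the motif in capitals.

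CEACAM6 (chr19:41755280-41755529, plus strand): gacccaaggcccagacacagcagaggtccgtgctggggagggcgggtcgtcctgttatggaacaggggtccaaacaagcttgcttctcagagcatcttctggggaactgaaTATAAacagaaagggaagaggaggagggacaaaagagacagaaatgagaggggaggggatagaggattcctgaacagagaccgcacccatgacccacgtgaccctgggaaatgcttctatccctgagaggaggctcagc
MUC1 (chr1:155192916-155193165, minus strand): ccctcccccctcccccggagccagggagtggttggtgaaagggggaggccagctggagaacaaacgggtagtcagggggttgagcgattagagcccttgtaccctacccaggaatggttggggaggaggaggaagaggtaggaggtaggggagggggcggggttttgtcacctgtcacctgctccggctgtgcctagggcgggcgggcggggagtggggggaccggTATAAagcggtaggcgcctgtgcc
PLOD2 (chr3:146161185-146161434, minus strand): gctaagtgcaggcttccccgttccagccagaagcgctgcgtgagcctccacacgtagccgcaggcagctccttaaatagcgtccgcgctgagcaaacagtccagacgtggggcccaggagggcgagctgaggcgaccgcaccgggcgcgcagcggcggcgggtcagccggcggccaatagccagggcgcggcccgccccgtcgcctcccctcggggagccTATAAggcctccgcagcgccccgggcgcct

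The motif was searched as TATAA on both strands. It begins 24 bases before the start in MUC1, 30 bases before it in PLOD2 and 139 bases before it in CEACAM6, each time on the gene's own strand. The windows of CTSE, PIGR, SERPINA3 and SLC6A8 do not hold these letters. Of 35116 RefSeq promoter windows of the same 250 bases, 18.9% hold it, and since the shown windows were picked on it, nothing is read from their number. The CEACAM6 window lies inside the longer GENCODE gene, since the annotations start the gene at different bases.

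Clones of 1 genotype stood about as far apart as clones of different genotypes. The 5 libraries held 9314342 to 13779579 reads, the fewest in CC clone 3. Over the tested genes the root mean square log2 difference between the treated CC clones was 0.834, and those between GG clones were 0.635 to 0.839. The GG to CC pairs ran from 0.480 to 0.874, and the nearest were GG clone 6 and CC clone 3. Treated CC clone 3 was nearer to treated GG clone 6 than to its own control, at 0.568. The first principal component of the 8 treated libraries held 36.8% of the variance and set GG clone 6 (score -46.0) and CC clone 3 (-55.9) apart from the other 6 (4.84 to 29.8). No label ties these clones to a shared day or batch. Without treatment GG clone 6 and CC clone 3 were at 0.515, against 0.636 between the untreated CC clones. Transcript levels do not check the genotype labels.

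Between GG and CC under palmitic acid 1 of the 12972 tested genes passed limma's adjusted p of 0.05 (0.00771%). It was MUC5AC, the gel-forming mucin of stomach and airway surface cells, lower in GG, where it had no read. At an unadjusted p under 0.05 limma placed 90 genes higher in GG (0.694%) and 72 lower (0.555%). All 3 GG libraries lay above both CC libraries in 777 genes (5.99%) and below both in 721 genes (5.56%). Of these, 132 and 119 had the same order in the untreated clones. The median difference over all tested genes was -0.0065, with 6349 genes positive and 6623 negative, and the median SE was 0.273. For a single gene an exact permutation test of 3 against 2 libraries cannot go below a two-sided p of 0.2.

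MUC5AC (ENSG00000215182.8, GRCh38 chromosome 11, 1157953 to 1201138, plus strand) had 109 reads in treated CC clone 1 and 94 in treated CC clone 3. It had no read in any treated GG library. Its level was 7.67 and 10.2 units in the CC clones, and the CC mean of 8.93 ± 1.79 units (SD, n = 2) was at least 111-fold higher than in GG, with 3 counts over the group of 3 GG libraries as the floor. The log2 difference was -4.22 ± 0.34 (SE, limma adjusted p = 0.0197), and its size depends on the added 0.5. The other 11 libraries, control and GC, held at most 1 read each, the untreated CC clones included. The call depends on the fit. Leaving out any of the 8 treated libraries gave limma adjusted p-values of 0.0820 to 0.320, the 5 libraries alone gave 0.368, a pseudocount of 0.1 gave 0.253, and edgeR on the recovered reads gave 0.452. MUC5AC was called with all 16 libraries (limma adjusted p = 2.1e-05), with no filter on low values (6.2e-04), with no variance trend (3.3e-04) and by DESeq2 on the recovered reads (3.6e-07). The fit of 16 libraries takes the related control and treated libraries of a clone as independent, so its p is too small.

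MUC5AC did not stand alone. CEACAM6, a surface glycoprotein of epithelial cells, had 67 and 28 reads in the treated CC clones and none in the other 14 libraries, with the CC mean at least 48.0-fold higher than in GG by the same floor (log2 -3.10 ± 0.36, limma adjusted p = 0.173). The membrane mucin MUC1 was at 0.0784, 0.297 and 0 units in GG clones 1, 2 and 6 and at 3.52 and 3.04 in CC clones 1 and 3 (log2 -2.62 ± 0.39, adjusted p = 0.640). REG4, a secreted lectin of the gut, had 22 and 18 reads in the treated CC clones and 0 elsewhere. TFF1 and TFF2, peptides secreted with gastric mucus, had 22 and 32 reads in CC clone 1 and 19 and 18 in CC clone 3, against at most 1 read in any other library. In all of these the groups do not overlap, and both CC clones are high. TFF1, TFF2 and REG4 were under the filter of 1 unit and not tested.

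In all, 14 genes had at least 0.5 units in both treated CC libraries and less than that, and at least 4-fold less, in each of the other 14 libraries. These were chosen on this pattern, so their count is a description. They add up to 401 reads in CC clone 1 and 283 in CC clone 3, or 29.1 and 30.4 per-million reads, in libraries that otherwise stood far apart, and the highest sum elsewhere was 9 reads. They lie on 8 chromosomes. Among the other pairs of treated libraries the highest number of such genes was 3, for GG clone 6 with CC clone 3. MUC17, CEACAM5, ALDH1A3 and the kallikreins KLK7 and KLK10 are among the 14, as are CER1, FER1L6 and PRSS2.

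The values of a list of 30 gastric and intestinal mucous epithelium genes, put together after MUC5AC, CEACAM6, MUC1, REG4, TFF1, TFF2 and MUC6 had been seen, are given beside this. Of the 22 in the table, 13 were higher in both treated CC libraries than in each of the other 14. The share of all genes with that order is not given here, so nothing is read from this count. Of its 11 tested members 6 were lower in all 3 GG than in both CC and 0 were higher, against 5.56% and 5.99% of all tested genes. Members with GG values under 1 unit, MUC5AC, CEACAM6 and MUC1 among them, reached the filter only through their CC values. For those, GG below CC was largely set by the filter, so the shares of all tested genes are no like comparison. The list followed from such genes, so its counts are a description. The summed level of the list was 93.3 and 165 units in CC and 70.3 to 281 in GG, most of it VIL1, which HepG2 itself expresses. Without VIL1 the sum was 48.0 and 45.1 units in CC and 21.95, 28.3 and 10.7 in GG clones 1, 2 and 6, with up to 63.1 among the other 14 libraries. The gastric protease precursor PGC went the other way, at 7.39 and 1.63 units in treated CC and 16.15, 13.5 and 4.66 in treated GG, and at up to 36.0 in other libraries. With PGC left out as well, a choice made after its values were seen, the sum was 40.7 and 43.5 units in CC and 5.80, 14.8 and 6.03 in GG, and at most 29.1 in any of the other 14 libraries. Members with 0 reads numbered 0 in each CC library and 7 to 8 in each GG library. In bulk RNA, more cells of a type and more RNA per cell cannot be told apart, and the part of such cells in the difference was not tested. The treated CC libraries are also the last in the sample order, and whether these reads came from the clones or entered the libraries otherwise cannot be told from the table and was not tested.

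**Figure D1:**
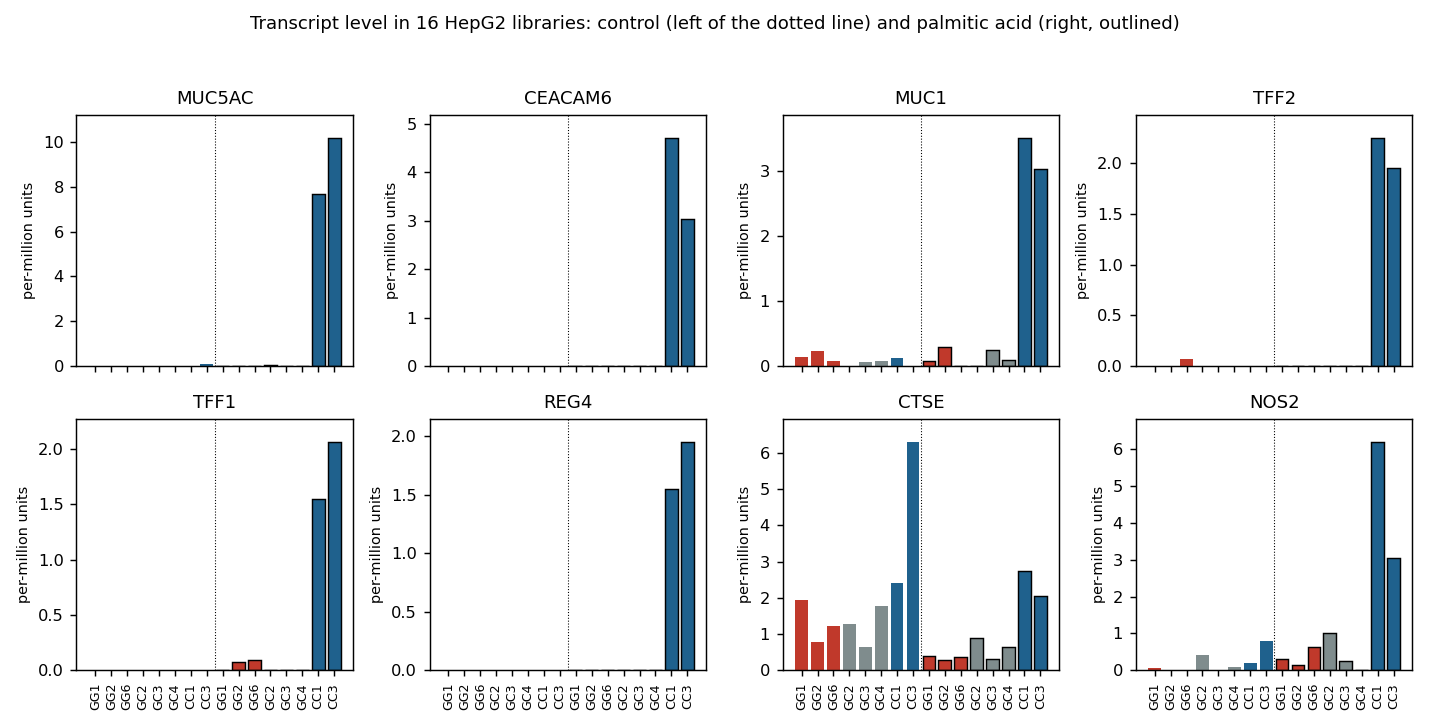
Level in per-million units (vertical axes, from 0) of 8 genes in 16 libraries, controls left of the dotted line and palmitic acid right of it, with red for GG, grey for GC and blue for CC. MUC5AC, CEACAM6, MUC1, TFF1, TFF2 and REG4 stand out in treated CC1 and CC3, with at most 0.297 units in any other library, whereas CTSE is also present in controls.

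CTSE, PIGR and NOS2 had reads in other libraries too. CTSE, an aspartic protease of gastric epithelium, was at 0.392, 0.297 and 0.365 units in treated GG clones 1, 2 and 6 and at 2.74 and 2.06 in CC clones 1 and 3 (log2 -1.76 ± 0.36, limma unadjusted p = 0.00127). In control cells CTSE was at 0.792 to 1.94 units in GG and at 2.40 and 6.30 in CC, so GG was below CC with and without palmitic acid. PIGR, which carries immunoglobulin A across epithelia, was at 0.183 to 0.706 units in treated GG and at 2.81 and 2.06 in treated CC, without overlap. NOS2, the inducible nitric oxide synthase, was at 0.149 to 0.639 units in treated GG and at 6.19 and 3.04 in CC, while its control levels were 0 to 0.0692 in GG and 0.190 and 0.798 in CC. None of these 3 passed the adjusted threshold in limma. Their treated GG values were all under 1 unit, so they reached the filter only through their CC values, which largely set the order.

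The response to palmitic acid was compared between genotypes by subtracting each group's control. By limma on 16 libraries 2 genes passed the adjusted p of 0.05 (0.0154%), MUC5AC (-4.12 ± 0.41, adjusted p = 0.00189) and CEACAM6 (-3.10 ± 0.42, adjusted p = 0.0362). In both genes the treated minus control difference was larger in CC than in GG, where neither had a read in any library. Control and treated libraries of a number are the same clone, and with the clone as a replicate block 1 gene passed (0.00771%): MUC5AC at adjusted p = 0.00750, while CEACAM6 was at 0.107. With the block on the 10 GG and CC libraries alone neither passed, at 0.0755 and 0.6003. With no block and CC clone 1 or CC clone 3 left out, 0 genes passed in limma (199 and 42 at unadjusted p under 0.05). The block raised the genes at unadjusted p under 0.05 from 58 to 770, of which MUC5AC alone passed the adjusted threshold.

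UQCRB, a small subunit of respiratory complex III, had the order of its groups turned by treatment. In control it was at 39.6, 41.1 and 38.2 units in GG clones 1, 2 and 6 and at 36.0 and 23.2 in CC clones 1 and 3. Under palmitic acid it was at 27.2, 29.5 and 35.1 in GG and at 46.1 and 35.3 in CC. Every GG clone was lower with treatment and both CC clones higher. The groups did not overlap in either condition, though treated GG clone 6 and CC clone 3 were nearly level. The difference in response was -0.85 ± 0.17 with clone block (limma unadjusted p = 4.2e-04, adjusted p = 0.792).

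The 12 genes named as higher in GG were those with the smallest p among genes with every GG library above both CC libraries and a GG mean of 5 units or more. None passed the adjusted threshold: limma's unadjusted p-values were 0.00287 to 0.0172 and the adjusted p was 0.9996 for all 12. In 11 of 12 the mean of the GC clones lay between those of GG and CC, against 23.9% of all tested genes, most of which are not separated. In the untreated clones 12 of 12 had the same sign and 6 of 12 were also free of overlap. Among all 777 genes with GG above both CC, 132 had that order in control. Since the rule chose separated genes, these counts describe the named genes only.

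SERPINA3, the secreted acute-phase inhibitor antichymotrypsin, was at 262, 488 and 617 units in treated GG clones 1, 2 and 6 and at 82.6 and 139 in CC clones 1 and 3. GG was higher by 4.12-fold in the means (log2 2.00 ± 0.52, unadjusted p = 0.00499 in limma). In control cells the groups overlapped, at 106 to 444 units in GG and 41.7 and 232 in CC.

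PLOD2, a lysyl hydroxylase that prepares collagen for cross-linking, was at 236, 360 and 259 units in GG clones 1, 2 and 6 and at 171 and 120 in CC clones 1 and 3. Its difference under palmitic acid (log2 0.96 ± 0.23) was close to that in control (0.90 ± 0.27), and the groups did not overlap in either condition. The 3 GC clones were at 162 to 185 units. PC, pyruvate carboxylase, which feeds carbon into gluconeogenesis and the citric acid cycle, was at 150, 190 and 131 units in GG and at 91.2 and 91.8 in CC (log2 0.76 ± 0.18). The CC clones lay nearly level for PC, below all GC clones, which were at 128 to 143 units. In control GG clone 6 was at 90.8 units and CC clone 3 at 117, so the order did not hold there.

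SLC6A8, the creatine transporter, was at 41.2, 95 and 106 units in GG clones 1, 2 and 6 and at 28.8 and 25.4 in CC clones 1 and 3 (log2 1.45 ± 0.39). GG clone 1 stood closer to CC than to the other GG clones. ABCB4, the canalicular flippase that moves phosphatidylcholine into bile, was at 17.6, 27.9 and 20.8 units in GG and at 12.8 and 14.0 in CC (log2 0.68 ± 0.22). In control ABCB4 was at 20.5 to 28.8 units in GG and at 19.5 and 28.6 in CC, with full overlap, and its response differed by 0.63 ± 0.17 with clone block (limma unadjusted p = 0.00337, adjusted p = 0.792).

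ETFB, the beta subunit of the flavoprotein that takes electrons from acyl-CoA dehydrogenases, was at 163, 201 and 161 units in GG and at 131 and 116 in CC (log2 0.50 ± 0.15). The groups did not overlap in control either, at 144 to 186 units in GG and 128 and 131 in CC. NR2F1, the nuclear receptor COUP-TF1, was at 46.3 to 60.2 units in GG and at 39.3 and 33.2 in CC (log2 0.59 ± 0.20), with a like difference in control (0.63 ± 0.18). MGAT5, which branches N-glycans, was at 347 to 429 units in GG and 293 and 220 in CC (log2 0.57 ± 0.18).

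FSTL5, a follistatin-like gene, had 1 read in each treated CC library and 36 to 452 reads in the GG libraries, at 4.39, 33.6 and 3.29 units in GG clones 1, 2 and 6. It was spread as widely over the GC clones, at 1.57 to 21.0 units, and its control levels followed the clone, with 0 and 0.0633 units in CC. FSTL5 reached the filter only through its GG values. limma gave 3.86 ± 1.15 (adjusted p = 0.9996), and 2.87 without GG clone 2. On the recovered reads DESeq2 called it, with an adjusted p of 0.00655, while edgeR gave an adjusted p of 0.9999. The remaining named genes were PPP2R2C, a regulatory subunit of protein phosphatase 2A (log2 1.54 ± 0.48), FAM20A, a secretory pathway pseudokinase (1.14 ± 0.38), and TIGD2 (0.87 ± 0.28).

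**Figure D2:**
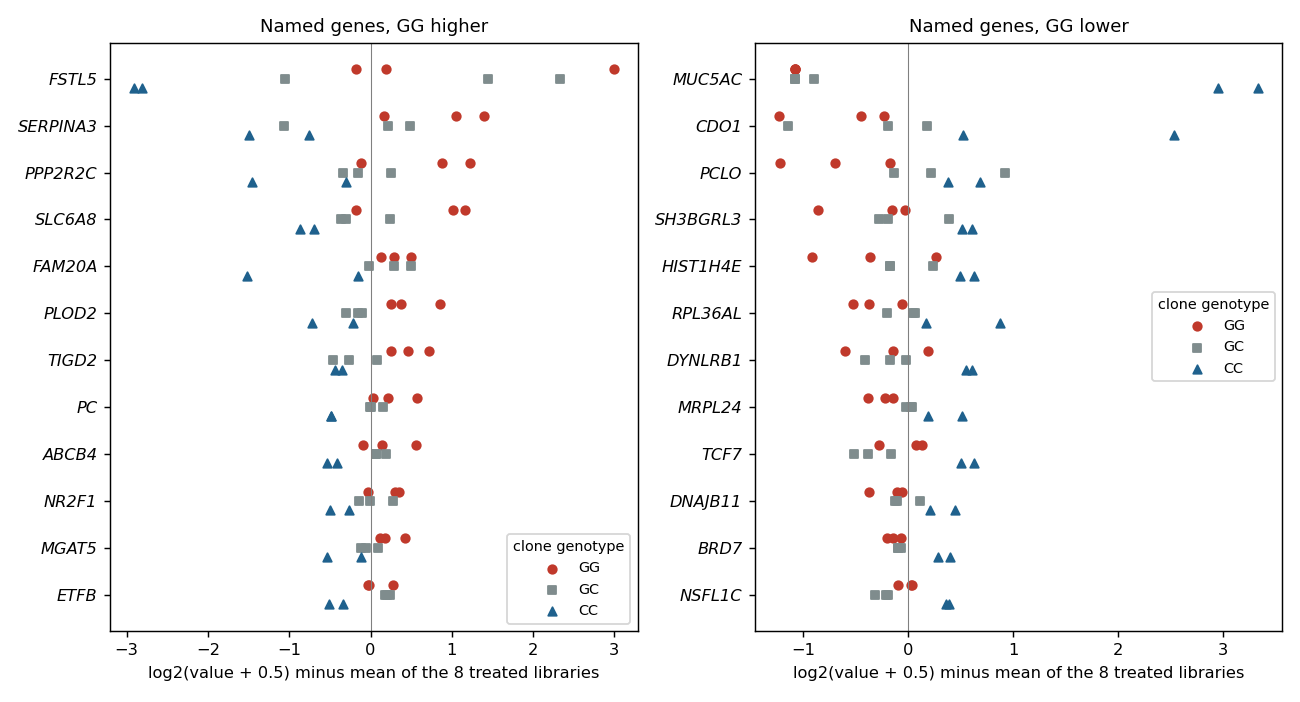
Log2(value + 0.5) of each treated library minus the mean of the 8 treated libraries (horizontal axes) for the 12 named genes higher in GG (left) and the 12 lower in GG (right), with circles for GG, squares for GC and triangles for CC. The separation of circles from triangles is part of how the genes were chosen, and the squares lie between the group means in 11 of 12 on the left and 9 of 12 on the right.

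Of the 12 genes named as lower in GG, MUC5AC passed the adjusted threshold and the other 11 did not (limma adjusted p = 0.9996). The GC mean lay between in 9 of 12, against 23.9% of all tested genes, most of which are not separated. In control 9 of 12 had the same sign and 3 of 12 were free of overlap, which were CDO1, MRPL24 and TCF7. Among all 721 genes with GG below both CC, 119 had that order in control. These counts too describe the named genes only.

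CDO1, cysteine dioxygenase, which breaks down cysteine toward taurine, was at 3.29, 1.71 and 3.93 units in GG clones 1, 2 and 6 and at 29.6 and 6.94 in CC clones 1 and 3 (log2 -2.17 ± 0.64). CC clone 1 stood far above all other libraries. The order was the same in control, at 1.74 to 4.34 units in GG and 21.5 and 8.78 in CC.

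BRD7, a bromodomain subunit of a SWI/SNF chromatin remodelling complex, was at 84.3, 81.0 and 89.2 units in GG and at 123 and 114 in CC (log2 -0.48 ± 0.13, unadjusted p = 0.00656 in limma). The 3 GC clones were at 87.2 to 88.9 units, level with GG. DNAJB11, a co-chaperone of the endoplasmic reticulum, was at 100.1, 80.7 and 96.7 units in GG clones 1, 2 and 6 and at 121 and 142 in CC clones 1 and 3 (log2 -0.51 ± 0.17). In control CC clone 3 had the lowest DNAJB11 of the 5 clones, at 66.0 units. NSFL1C, a cofactor of the segregase p97, was at 70.6 to 77.4 units in GG and at 99.4 and 97.2 in CC, and its untreated CC clones were at 99.9 and 63.7, on either side of GG.

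Several small or paralog-rich transcripts were also lower in GG: the histone gene HIST1H4E (log2 -0.90 ± 0.32), the ribosomal protein gene RPL36AL (-0.84 ± 0.28), SH3BGRL3 (-0.91 ± 0.31), the dynein light chain DYNLRB1 (-0.77 ± 0.24) and the mitochondrial ribosomal protein MRPL24 (-0.60 ± 0.20). Reads of HIST1H4E and RPL36AL can be shared with near-identical copies, so their levels are uncertain. TCF7, a transcription factor of Wnt signalling (-0.58 ± 0.20), and PCLO, a synaptic scaffold (-1.23 ± 0.40), complete the group. HIST1H4E had the smallest p of response among them, at -0.63 ± 0.15 with clone block (limma unadjusted p = 0.00119, adjusted p = 0.792).

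Genes of 37 lists for hepatocyte, lipid, stress and growth functions and for other cell types were then described as groups. The lists count MUC5AC as their only member past the adjusted threshold, in the epithelial list. Hepatocyte plasma proteins were positive (GG higher) in 24 of 24 tested members, with a median of 0.47 against -0.0065 over all tested genes, and 5 of 24 had all GG above both CC, against 5.99% of all tested genes. Coagulation and complement factors were positive in 24 of 25, with a median of 0.57 and 7 of 25 above. In control the medians were 0.01 and 0.02. The plasma protein median rests on CC clone 3: without it the value was -0.0029, with 12 of 24 positive. The coagulation and complement median was 0.23 without that clone, with 16 of 25 positive. Without CC clone 1 they were 1.04 and 0.68. Counting the mucous list beside the 37, there were 36 lists with at least 3 tested genes. Of these, 17 had a median of the other sign without CC clone 3, 10 without CC clone 1, and 6 to 7 without each GG clone.

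Clone medians show the same in another way. Relative to the mean of the 8 treated libraries, the plasma protein median was -0.83 in CC clone 3 and 0.12 in CC clone 1, and it was -0.28, 0.37 and 0.25 in GG clones 1, 2 and 6. CC clone 3 stood low, and CC clone 1 lay inside the GG range.

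VTN, vitronectin, was at 87.9, 135 and 120 units in treated GG clones 1, 2 and 6 and at 84.0 and 61.2 in CC clones 1 and 3 (log2 0.65 ± 0.24, unadjusted p = 0.0255 in limma). C3, the central complement component, was at 2624, 3619 and 4080 units in GG and at 2478 and 2004 in CC (log2 0.60 ± 0.27). CC clone 3 went from the highest C3 of the 5 clones in control, at 4877 units, to the lowest under palmitic acid, while CC clone 1 was at 2599 units before. C8B, a pore-forming complement subunit, was at 3.84, 14.8 and 4.66 units in GG and at 3.59 and 0.542 in CC, from 7.84 and 7.74 units in the untreated CC clones. PROS1, the anticoagulant protein S, was apart in both CC clones, at 139 and 146 units against 234, 228 and 180 in GG (log2 0.57 ± 0.24). C2, a complement protease, was at 209 to 340 units in GG and 192 and 137 in CC.

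Hepatocyte transcription factors were positive in 17 of 20 (median 0.19), and without CC clone 3 in 9 of 20 (median -0.07). FOXA3, a hepatocyte pioneer factor, was at 37.6, 50.2 and 27.1 units in GG clones 1, 2 and 6 and at 26.8 and 22.8 in CC, so that GG clone 6 and CC clone 1 were nearly level. Of 13 tested oncofetal genes 11 were positive (median 0.11), and leaving out CC clone 3 gave a median of 0.01, leaving out GG clone 1 one of 0.53. LIN28B, a fetal RNA-binding protein that blocks let-7 maturation, was at 231, 132 and 164 units in GG and at 88.3 and 108 in CC (log2 0.80 ± 0.28), free of overlap in control too. DLK1, a fetal liver surface protein, was at 199 to 510 units in GG and at 162 and 182 in CC.

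No gene of the lipid lists passed the adjusted threshold. Of 28 tested genes of PPAR-alpha signalling and fatty acid oxidation 25 were positive, with a median of 0.18, and without CC clone 3 the median was -0.0038. Besides ETFB, HADHB of the mitochondrial trifunctional protein was at 124, 161 and 122 units in GG and at 115 and 109 in CC (log2 0.27 ± 0.17). The lipid droplet and triglyceride list, PNPLA3's own pathway, was positive in 17 of 28 with a median of 0.05. Its members with the smallest p were LPIN2, a phosphatidate phosphatase (0.42 ± 0.22), PNPLA6, a lysophospholipase of the PNPLA family (0.50 ± 0.27), and the droplet protein HSD17B11 (0.28 ± 0.22). LPIN2 was at 179, 168 and 111 units in GG and at 112 and 111 in CC, with GG clone 6 level with CC.

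Fatty acid synthesis, uptake and desaturation genes were negative in 17 of 27 (median -0.07). ACSS2, which turns acetate into acetyl-CoA, was at 55.7, 33.6 and 38.4 units in GG and at 70.9 and 53.1 in CC (-0.55 ± 0.25), with GG clone 1 above CC clone 3. Cholesterol synthesis and sterol regulation genes were negative in 21 of 29 (median -0.14), against 0.09 in control, and the median was 0.14 without CC clone 1. IDI1, an isomerase of the sterol pathway, was at 85.4, 85.6 and 73.0 units in GG and at 120 and 101 in CC (-0.44 ± 0.22). It was the only 1 of the 29 free of overlap, while 5.56% of all tested genes had every GG below both CC. INSIG2, a sterol regulator in the endoplasmic reticulum, was at 55.2, 103 and 79.9 units in GG and at 46.6 and 55.5 in CC (0.59 ± 0.28).

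MTTP, which loads lipid onto apolipoprotein B, was at 137, 143 and 142 units in GG and at 134 and 48.4 in CC (0.80 ± 0.42). Only CC clone 3 was far from the rest. Apolipoprotein and lipoprotein assembly genes were positive in 15 of 22 (median 0.16), and the median was -0.11 without CC clone 3. Bile acid genes were positive in 9 of 13 (median 0.30), and the median was -0.13 without that clone. Of 31 ceramide and sphingolipid genes 19 were positive (median 0.04). SPTSSB, a small subunit of serine palmitoyltransferase, was at 7.37, 27.9 and 7.95 units in GG and at 6.26 and 4.12 in CC (1.14 ± 0.54).

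ALDH1A1 of the retinoid list and AKR1C3 of the NRF2 list had levels that followed clones. ALDH1A1, which oxidises retinal to retinoic acid, was at 207 and 279 units in GG clones 1 and 2, at 1.64 in GG clone 6, and at 1.48 and 0.542 in CC clones 1 and 3. GC clones 2, 3 and 4 were at 0.953, 181 and 465 units. In control the same GG clones were high, at 155 and 144 units, and the other 3 of the 5 clones were at 0.479 to 1.33. AKR1C3, a ketosteroid reductase, was at 68.1 and 46.3 units in GG clones 1 and 2 and under 1 unit in GG clone 6 (0.457) and both CC clones (0.633 and 0.325). Reads of AKR1C3 can be shared with related AKR1C genes. limma gave 5.12 ± 2.73 for ALDH1A1 (unadjusted p = 0.0973) and 3.91 ± 1.66 for AKR1C3 (0.0460).

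Stress and growth genes split the clones across the genotypes. For the ATF4 and CHOP list, which holds targets of the integrated stress response, the GG minus CC median was -0.02, with 13 of 28 positive. Its clone medians were 0.83 in GG clone 6 and 0.72 in CC clone 3, against -0.26, -0.61 and -0.73 in GG clone 1, GG clone 2 and CC clone 1. DDIT4, an inhibitor of mTORC1 signalling, was at 47.6, 40.03 and 225 units in GG clones 1, 2 and 6 and at 53.3 and 234 in CC clones 1 and 3. GG clone 6 and CC clone 3 were high in control too, at 184 and 131 units against 27.0 to 44.9 in the other 3. PPP1R15A, the phosphatase subunit that reverses eIF2-alpha phosphorylation, was at 27.6, 16.9 and 67.7 units in GG and at 18.1 and 106 in CC, with the same clones high. The sign of the difference of both genes turned when CC clone 3 was left out, to 0.50 for DDIT4 and 0.79 for PPP1R15A.

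Cell cycle genes were negative in 38 of 41 (median -0.41 under palmitic acid and -0.42 in control). Their clone medians were 0.07, 0.68 and -1.06 in GG clones 1, 2 and 6 and 0.90 and -0.19 in CC clones 1 and 3, so that GG clone 6 was lowest and CC clone 1 highest. With CC clone 1 left out the list median was 0.08, and with GG clone 6 left out it was 0.07. RRM2, a ribonucleotide reductase subunit, was at 72.8, 120 and 16.0 units in GG and at 182 and 70.0 in CC (-1.11 ± 0.78). KIF23, a kinesin of cell division, was at 18.6, 29.5 and 7.58 units in GG and 43.1 and 18.7 in CC (-0.80 ± 0.54). CDC25C, a phosphatase of mitotic entry, was at 6.12 to 18.1 units in GG and at 26.4 and 12.8 in CC. CDK4, the kinase that starts the cell cycle, was the only 1 of the 41 free of overlap, at 150, 158 and 153 units against 192 and 178 (-0.27 ± 0.17). Over all tested genes 5.56% had every GG below both CC, so nothing is read from this count.

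**Figure D3:**
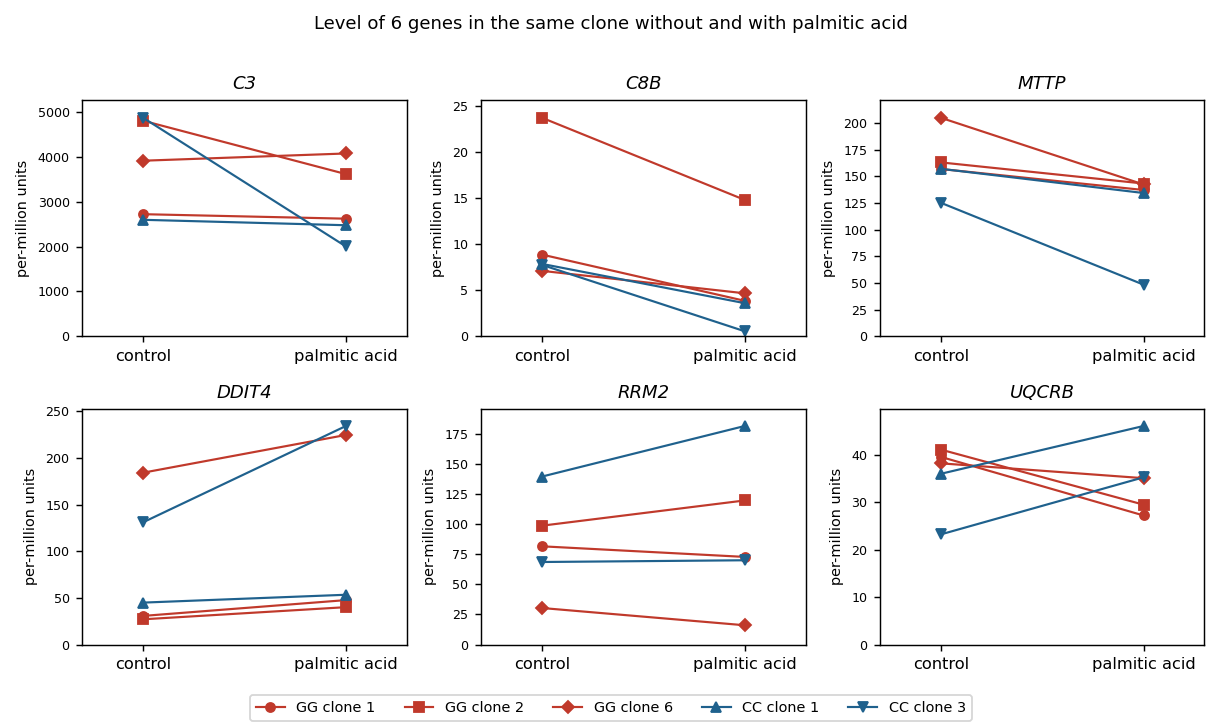
Level in per-million units (vertical axes, from 0) of 6 genes in the untreated and treated library of each GG clone (red) and CC clone (blue), with a line joining the libraries of a clone. C3 in CC clone 3 goes from 4877 to 2004 units, DDIT4 is high in GG clone 6 and CC clone 3 in both conditions, and the lines of UQCRB cross.

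Among inflammatory genes 12 of 19 tested were positive (median 0.12) and 4 were free of overlap, all higher in GG, against 5.99% of all tested genes. The median was -0.06 without CC clone 1 and 0.41 without CC clone 3. TNFAIP3, a brake on NF-kB signalling, was at 134, 113 and 112 units in GG and at 58.1 and 93.4 in CC (0.69 ± 0.27, unadjusted p = 0.0316 in limma), but at 136 units in untreated CC clone 3. NFKBIZ, an NF-kB cofactor, was at 16.6 to 23 units in GG and at 13.5 and 14.1 in CC (0.51 ± 0.24). Respiratory chain genes were positive in 29 of 39 (median 0.11), with 6 above and 4 below without overlap, against 5.99% and 5.56% of all tested genes. The median was 0.02 without CC clone 3. UQCRFS1, the iron-sulfur subunit of complex III, was at 76.8, 105 and 72.7 units in GG and at 69.1 and 53.6 in CC (0.45 ± 0.22), opposite in sign to UQCRB of the same complex.

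The next 17 lists had medians between -0.12 and 0.19. They were -0.0015 for drug metabolism (12 of 25 positive), 0.04 for chaperones of the endoplasmic reticulum (15 of 24), -0.06 for heat shock proteins (6 of 17), -0.0025 for autophagy and lysosome (16 of 32), -0.02 for survival and death regulators (13 of 29) and 0.06 for NRF2 targets (15 of 24). p53 targets were positive in 19 of 25 (0.19), glycolysis genes in 23 of 30 (0.10), gluconeogenesis genes in 11 of 13 (0.15), interferon-stimulated genes in 18 of 30 (0.09), matrix genes in 19 of 33 (0.07) and amino acid catabolism genes in 16 of 26 (0.07). Retinoid genes were positive in 9 of 15 (0.10), epithelial and mesenchymal genes in 12 of 28 (-0.03), metallothionein genes in 3 of 8 (-0.12) and insulin-like growth factor genes in 4 of 9 (-0.02). Genes at other fatty liver loci were positive in 7 of 15 (-0.02).

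PNPLA3 (chromosome 22, 43923739 to 43964488) was at 8.39, 3.94 and 3.56 units in GG clones 1, 2 and 6 and at 14.8 and 2.39 in CC clones 1 and 3. The CC clones enclosed all GG clones. The log2 difference was -0.29 ± 0.66, with a 95% interval from -1.81 to 1.23 (limma unadjusted p = 0.668), and it was 0.91 without CC clone 1. Of 9 tested neighbours on chromosome 22 it was ARFGAP3, a Golgi trafficking gene, that had the smallest p, at 48.0, 65.4 and 46.8 units in GG and 32.6 and 45.5 in CC (0.45 ± 0.22).

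By chromosome the median differences ran from -0.12 on chromosome 21 to 0.06 on chromosome 18. The low values on chromosomes 21, 13, 10 and 6 went with GG clone 2. Its medians against the 8 treated libraries were -0.29, -0.26, -0.16 and -0.13 there under palmitic acid, and -0.25, -0.26, -0.16 and -0.13 in control. GG clones 1 and 6 were at 0.02 to 0.11 on these chromosomes. Copy number was not measured, and its part was not tested.

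Markers of other liver cell types were sparse. Of these, 5 of 13 stellate cell and fibroblast genes, 3 of 8 cholangiocyte genes, 2 of 9 macrophage genes and 2 of 8 endothelial genes were tested, and 0 of each were free of overlap between GG and CC. Their medians were 0.44, 0.08, -0.04 and 0.35, each over 2 to 5 genes. Over all tested genes 5.99% had every GG above both CC and 5.56% every GG below. Transcripts that mark the hepatocyte lineage were present in all 5 libraries, with alpha-fetoprotein (AFP) at 2595 to 15074 units and albumin (ALB) at 99.2 to 820. AFP was lowest in CC clone 3.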

How the data were processed

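RNA of HepG2 clones was extracted with TRIzol and a column, and directional libraries followed an rRNA depletion, per the labels' protocols. Tools listed in the submitters' processing notes are Bowtie2, edgeR, RSEM 1.3.0 and Trimmomatic 0.38, with build hg38. Which annotation and which gene filter were used is not given in the sources used here. Values in the deposited table are a normalized signal, and per the authors' values this is a per-million count with edgeR's scaling. Within 0.01 reads, 100% of the values were whole multiples of what 1 read is worth in that library, which returned the reads.

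Per-million values were analysed as log2(value + 0.5) with limma 3.58.1 in R 4.3.3, two-sided, with a variance trend and Benjamini-Hochberg adjustment over all genes with a mean of at least 1 over the 5 libraries. The fit held all 8 treated libraries in 3 genotypes (5 residual degrees of freedom). The difference in response used 16 libraries (10 residual degrees of freedom), and with clone block 5. The pairing comes from the clone: deviations from group means correlated at 0.526 to 0.859 within a clone, the highest correlation for 8 of 8. Deviations from a group mean lower the correlation with other clones of the genotype. The 2 CC clones mirror each other and share the value 0.748, so these are not 8 separate checks. The fit was also run on simulated counts, with changes set only in genes above 5 units and the same spread for every gene. That run does not speak for genes with 0 reads in a group, such as MUC5AC. edgeR 4.0.16 and DESeq2 1.42.0 on the recovered reads, other pseudocounts, filters and scalings, and leaving out each clone were alternatives. P-values of GG against CC measure the spread between clones within a genotype, which limma draws toward that of other genes. For MUC5AC, with at most 1 read in each GG and GC library, nearly all of its own spread lies in the CC libraries. With clone block the response p-values measure the spread of the response between clones, and without it the libraries of a clone are taken as separate.

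Positions are from GENCODE 29 (92.1% of genes placed) and upstream sequences from RefSeq GRCh38.p14. Named genes had a usual symbol, no overlap between GG and CC and at least 5 units in the higher group: up to 12 each way, filled by smallest p, with PNPLA3 and up to 3 members per list by smallest p. A gene that the rule names is not reported here. The mucous group, NOS2, PIGR, UQCRB's response, ALB and AFP were chosen after their values were seen. Of 952 list symbols the table held 858 (12 of them by a synonym), and 751 were tested. Members, lists and the naming rule were chosen with earlier results of these data known.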

Additional observations from a re-analysis of the deposited data

Results flagged for a closer look

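The response to palmitic acid differed between GG and CC clones for 2 genes by limma's test of the difference itself, without the pairing of a clone's libraries. For MUC5AC it was -4.12 on the log2(value + 0.5) scale: no read in the 6 GG libraries, at most 1 in the untreated CC libraries, and 109 and 94 reads in the treated ones. For CEACAM6 it was -3.10, with 67 and 28 reads in the treated CC libraries and none elsewhere. In both genes every treated CC clone was high. With the clone as a replicate block the adjusted p was 0.00750 for MUC5AC and 0.107 for CEACAM6, and on the 10 GG and CC libraries alone, with the block, it was 0.0755 and 0.6003. Leaving out each clone in turn gave limma adjusted p-values of 0.0141 to 0.153 for MUC5AC and 0.172 to 0.9997 for CEACAM6. Genes of stomach and gut mucous epithelium are among those that share this pattern, and so are CER1, PRSS2, KLK7 and KLK10. The values of the mucous genes stand beside the result, and their part was not tested.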

How the results depend on the processing

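The 1 gene called between GG and CC was 0 with the 5 libraries alone, with a pseudocount of 0.1, with a mean of at least 5 units, by edgeR (169 at unadjusted p), when any clone was left out, and without GG clone 6 and CC clone 3 together, an alternative chosen after seeing the data. In those limma fits 98 to 662 genes were at unadjusted p under 0.05. It was 3 with 16 libraries, a fit that takes the related libraries of a clone as independent. It was 7 with no filter, 3 by DESeq2 and 2 without the variance trend. It was 1 with both other scalings and a pseudocount of 1. MUC5AC has a mean under 5 units, so the filter at 5 removed it, and the 0 of that fit is no test of it.

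The 2 genes called for the response were 0 with a pseudocount of 0.1, with a mean of at least 5 units and by edgeR (67 at unadjusted p), and 0 to 1 when each clone was left out, 0 without either CC clone. The filter at 5 units removed both called genes, so the 0 of that fit is no test of them. With the replicate block, which pairs the libraries of a clone, the count was 1, and with the block on 10 libraries 0. The limma fits with 0 calls had 31 to 503 genes at unadjusted p under 0.05. Of 36 list medians, that of the mucous list included, 29 took the other sign under at least 1 alternative. Among the 29 were the ATF4 list (-0.68 to 0.62), the matrix list (-0.26 to 0.42) and gluconeogenesis (-0.06 to 0.41). Of 63 single-gene results, 3 changed direction. Over the clones left out, PNPLA3 ran from -1.50 to 0.91 (without CC clone 1), DDIT4 from -1.63 to 0.50 and PPP1R15A from -1.72 to 0.79 (both without CC clone 3). PPP1R15A was 0.25 without GG clone 6 and CC clone 3 together. For the changed counts the cause was not tested beyond the fewer libraries or genes of those fits. A read is worth 0.0633 to 0.108 units, which limits genes near the filter, and 2 CC clones limit every comparison.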
